A study of Mus musculus with 12 samples.

Results

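Duxf3 and Duxbl1 were the 2 genes, of 30480 genes listed in 3 count tables, whose symbols start with Dux. Duxf3 is the endogenous mouse Dux gene and was listed in all 3 tables. Duxbl1, a B-like relative of Dux, was listed in the 2 tables of a stable cell line only. Duxbl2 and Duxbl3 are in the annotation, and were compared with Duxbl1 in sequence but not in expression. Duxf3 (ENSMUSG00000075046, protein coding) lies on chromosome 10, 58229979 to 58232675, minus strand, and Duxbl1 (ENSMUSG00000048502, protein coding) on chromosome 14, 25978577 to 25990088, plus strand, in GRCm38 (mm10) with the GENCODE annotation. The symbols were chosen by name and not by any measured value.

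The libraries were RNA-seq of mouse embryonic stem cells, grown with serum, leukemia inhibitory factor and the 2 kinase inhibitors of 2i medium. There were 6 groups of 2 libraries. Transient mDux cells expressed a codon-altered mouse Dux transgene for 24 h and were set against transient control cells. Unsorted doxycycline cells, induced for 24 h, were set against the same line with no doxycycline. GFP-positive cells were set against GFP-negative cells, both sorted from the line after 24 h of doxycycline. Every stable-line library, the uninduced ones included, carried the doxycycline-inducible transgene with an HA tag and a reporter in which the retrovirus MERVL drives EGFP, under puromycin and G418 selection. The line was expanded from single-cell clones. The design holds no cells given doxycycline but lacking the transgene, and in the unsorted comparison what the drug does and what mDux does cannot be told apart. In the sample labels the transgene field reads alike for transient mDux and transient control cells, and the groups here follow the sample titles. Whether both libraries of a group are separate cultures is not stated, and the spread behind each p-value may therefore be technical. Libraries of a group are called A and B.

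Dux encodes a transcription factor with a pair of homeodomains, a DNA-binding fold. In the mouse embryo it is transcribed briefly around the time the genome is first switched on, and its protein activates genes and MERVL elements of the 2-cell stage. In embryonic stem cell cultures the same genes mark the rare cells called 2-cell-like. The genomic copies of Dux stand in a tandem array. Duxbl proteins carry a pair of homeodomains as well.

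The study's transgene was codon-altered, so its RNA differs in letters from that of the genomic gene. Its sequence was not used here, and how many transgene reads, if any, were counted for Duxf3 was not tested. Within 20 kb of Duxf3 lay 4 further genes, all on the minus strand: AW822073 (ENSMUSG00000058537, protein coding, 58222972 to 58224930), Gm10807 (ENSMUSG00000057216, unprocessed pseudogene, 58227857 to 58228651), Gm4981 (ENSMUSG00000075045, protein coding, 58234848 to 58236701) and Gm19459 (ENSMUSG00000093601, unprocessed pseudogene, 58239608 to 58240661). The first gene beyond the cluster on the side of Gm19459 is Gcc2, which starts at 58255497.

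**Figure D1:**
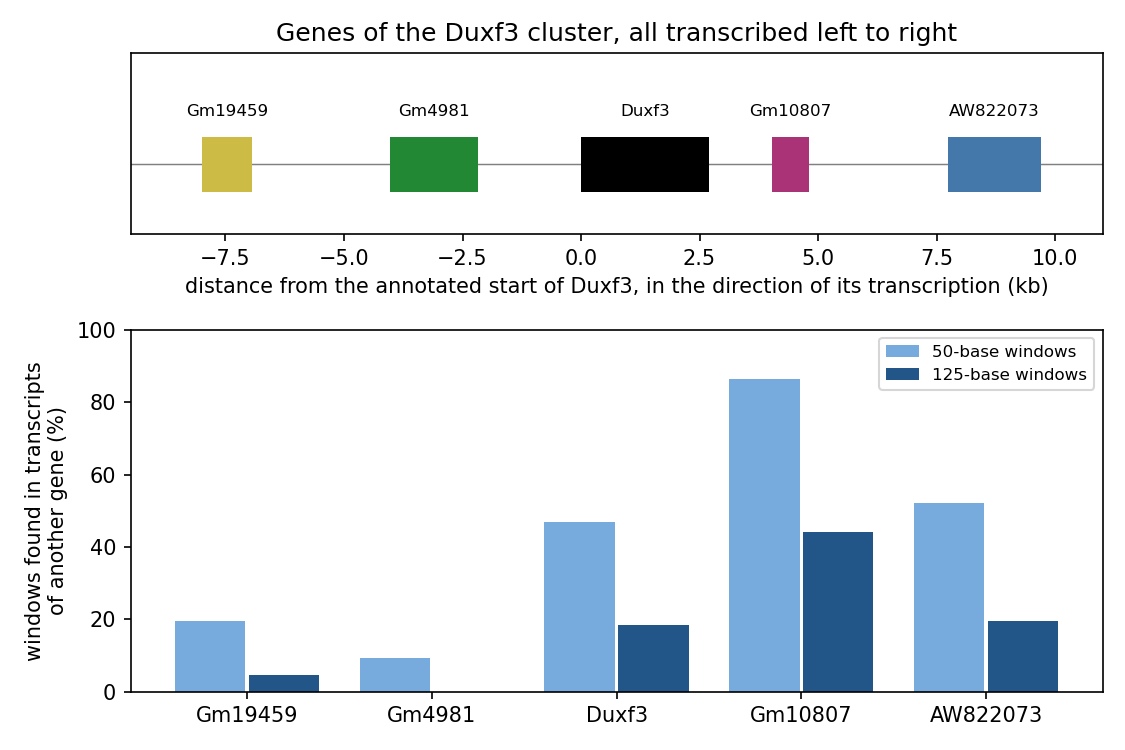
Top, the 5 genes of the Duxf3 cluster drawn to scale, with distance in kb from the annotated start of Duxf3 on the horizontal axis. Bottom, the percentage of each gene's distinct 50-base (light) and 125-base (dark) transcript windows that also occur in a transcript of another gene, from 86.4% for Gm10807 to 9.36% for Gm4981 at 50 bases.

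The copies are close in sequence, which limits how far a read can be given to one of them. The longest Duxf3 transcript (2025 bases) was 98.1% identical to AW822073 over 1959 aligned bases and 98.7% identical to Gm10807 over 795. It was 90.7% identical to Gm19459 over 605 bases and 83.0% identical to Gm4981 over 1091. The 3 lines here show a stretch of 90 bases from GENCODE transcripts on GRCm38, minus strand, 5′ to 3′. It covers bases 1231 to 1320 of the Duxf3 transcript, at chr10:58231356-58231445 if that transcript runs unspliced from the annotated gene start. It covers bases 1165 to 1254 of AW822073 (chr10:58223677-58223766) and the start of Gm10807 (chr10:58228562-58228651). Whether the stretch is coding was not tested. The set is shown because a 50-base read of the transient libraries falling within it has no base that tells Duxf3 from AW822073. Reads of the stable line, at 125 bases, are longer than the stretch. The capital marks the 1 base at which Gm10807 differs.
Duxf3: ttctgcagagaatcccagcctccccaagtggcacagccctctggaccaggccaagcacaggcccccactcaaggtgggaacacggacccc
AW822073: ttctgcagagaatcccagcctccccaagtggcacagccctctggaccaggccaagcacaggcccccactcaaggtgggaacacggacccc
Gm10807: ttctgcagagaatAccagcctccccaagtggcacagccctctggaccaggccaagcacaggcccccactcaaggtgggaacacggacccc

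Of all distinct 50-base windows of Duxf3 transcripts, the read length of the transient libraries, 47.1% also occurred in a transcript of another gene. At 125 bases, the length of each read of the stable line, 18.4% did. For AW822073 these shares were 52.1% and 19.7%, and for Gm10807 86.4% and 44.3%. Gm4981 had 9.36% shared windows at 50 bases and 0 at 125 bases, which makes it the copy most readily told apart. Duxbl1 had 93.5% and 83.4%, and its longest transcript was 99.96% identical to that of Duxbl2. The handling of reads with several matches was stated neither in the labels nor in the files, and the counts of single copies are uncertain for that reason.

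The promoter of Duxf3 is shown because Duxf3 RNA moved with a transgene for its own protein. The window runs from 250 bases before to 50 after the RefSeq start (chr10:58233040-58233339, minus strand, GRCm38.p6, RefSeq), which lies upstream of the GENCODE start used above. Capitals mark the 1 match to GATTNAATC, a core of the kind of repeated homeodomain half-site that double homeobox proteins bind.
Duxf3 promoter: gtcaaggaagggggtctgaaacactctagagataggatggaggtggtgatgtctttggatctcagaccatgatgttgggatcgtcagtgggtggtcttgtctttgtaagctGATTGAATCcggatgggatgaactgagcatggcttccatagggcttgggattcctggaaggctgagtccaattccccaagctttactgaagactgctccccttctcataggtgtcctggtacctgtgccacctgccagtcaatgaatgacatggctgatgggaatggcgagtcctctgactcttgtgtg
The match, GATTGAATC, covers bases 112 to 120 of the window and begins 139 bases upstream of the RefSeq start. GATTNAATC reads the same on both strands and occurred in 88 of 32851 RefSeq promoters of 300 bases, 0.268% of them. A second motif, AATCNAATC, searched on both strands, occurred in 160 promoters (0.487%) and not in this one. Neither was found in the window of Gm4981. No window was at hand for AW822073, Gm10807 or Gm19459, so those copies were not searched. A match describes letters and is neither a bound site nor a cause, and the deposited tables hold no binding data.

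Duxf3 RNA was highest in doxycycline cells and lowest in cells without it. Read counts per 1e6 gene reads (CPM), with scaling factors set over the 12 libraries, were 37.4 and 45.6 in doxycycline libraries A and B and 18.1 and 16.8 in GFP-positive libraries. They were 1.89 and 3.12 in transient mDux libraries, 0.439 and 0.571 in transient controls, 0.501 and 0.301 in GFP-negative cells and 0.290 and 0.159 without doxycycline. The 3 upper groups did not overlap one another or any lower group. Among the lower groups, transient control and GFP-negative libraries overlapped, and the lowest GFP-negative library stood next to the highest uninduced one. The means were 41.5 ± 5.81 CPM with doxycycline, 17.5 ± 0.920 in GFP-positive cells and 2.50 ± 0.872 with transient mDux. They were 0.505 ± 0.0933 in transient controls, 0.401 ± 0.141 in GFP-negative cells and 0.225 ± 0.0930 without doxycycline (SD, n = 2 each). These libraries differ in read type and in table, so the order across sets is a description.

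**Figure D2:**
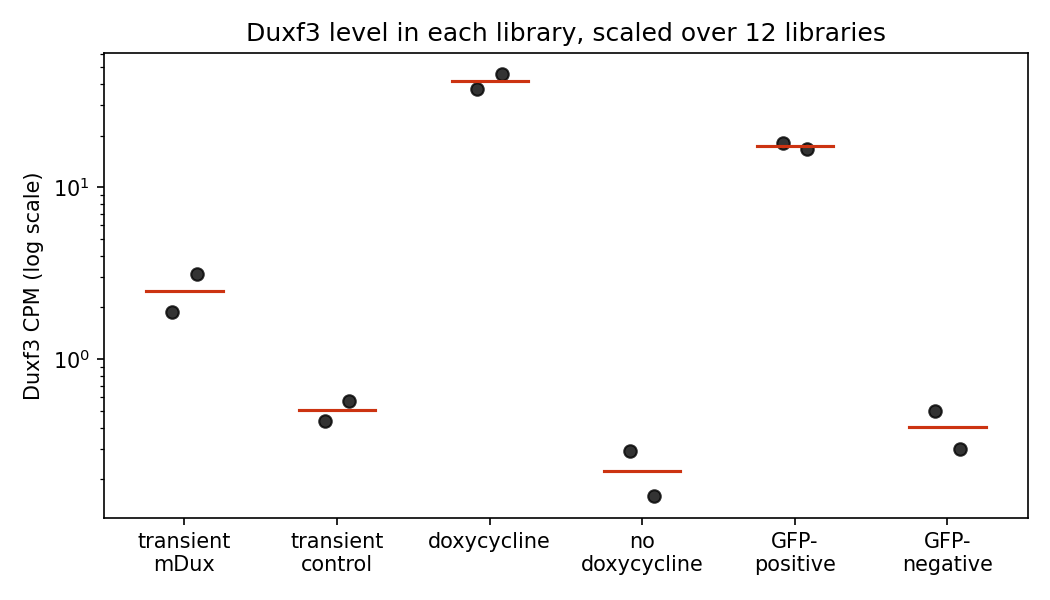
Duxf3 CPM on a log axis in each of the 12 libraries, scaled together, with points for libraries and lines for group means of 2 libraries. Both doxycycline libraries (37.4 and 45.6 CPM) lie above both GFP-positive libraries (18.1 and 16.8 CPM), and 3 groups lie below 1 CPM.

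Per length, on the RPKM scale (CPM divided by the gene's length in kb), Duxf3 stood at 13.9 and 16.9 with doxycycline, against 0.108 and 0.0589 without. AW822073 stood at 10.1 and 11.4 with doxycycline, and Gm4981 at 2.94 and 2.96. Gm19459 stood at 20.5 and 22.1, though its deposited length is only 229 bases. By the deposited lengths Duxf3 was above AW822073 and Gm4981 in the doxycycline libraries, with no overlap. The deposited length of AW822073, 2704 bases, exceeds its longest transcript of 1959 bases, so its order against Duxf3 depends on the length used. Reads of these near-identical copies also cannot be assigned with certainty. Duxf3 itself was never abundant in reads: its highest library held 603.

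The transient comparison asks what the transgene changes within a day of expression, and Duxf3 was higher with it, from a low base. The gene had 37 and 59 reads in transient mDux libraries A and B, against 7 and 12 in transient controls. Both mDux libraries lay above both controls. In the scale of this comparison alone the values were 1.94 and 3.23 CPM with mDux, against 0.450 and 0.577 CPM in controls. Duxf3 was 4.89-fold higher (log2 fold change 2.29 ± 0.39 SE, adjusted p = 0.0242, edgeR quasi-likelihood test with Benjamini-Hochberg adjustment), 1 of the 2.13% of tested genes that were higher, while 0.00668% were lower. The call was lost without mDux library B (log2 fold change 1.88, adjusted p = 0.156). In the authors' deposited table the log2 value of mDux over control for Duxf3 was 0.47 ± 0.13, with an adjusted p of 0.0269. DESeq2 run here on the same counts gave 2.31 ± 0.64, so the deposited value is not on the scale of the fold changes given here. Why it is smaller was not tested. In these bulk libraries, more cells with Duxf3 RNA and more RNA per cell cannot be told apart.

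The neighbouring copies listed in the transient set had fewer reads there than Duxf3. AW822073 had 20 and 21 reads with transient mDux, against 5 and 3 in controls, and these did not overlap. Its log2 fold change of 2.28 ± 0.48 was near that of Duxf3 (2.29 ± 0.39), but missed the threshold (edgeR adjusted p = 0.0742). It did pass when control library A was left out (2.87, adjusted p = 0.00462) and with no filter on low counts (2.27, adjusted p = 0.00277). Gm4981 had 1 and 1 reads with mDux, against 0 and 0 in controls, and Gm19459 had 0 and 1 reads, against 0 and 1. Both were too low to be tested there, and Gm10807 was not listed in that table. Summed over the 4 listed genes, a choice made after the data were seen, the cluster was higher by 2.28 on the log2 scale (edgeR adjusted p = 0.00741).

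Every gene of the cluster was higher with doxycycline than without. Duxf3 had 421 and 603 reads with doxycycline, against 5 and 3 without. On the scale of this comparison the values were 47.6 and 58.6 CPM with doxycycline, against 0.326 and 0.179 CPM without, a log2 fold change of 7.68 ± 0.20 or 206-fold (adjusted p = 1.55e-101). The 2 groups were far apart, and with gene totals in place of the composition factor TMM the log2 fold change was 7.46. Of all tested genes 34.0% were higher and 31.1% lower (5525 and 5051 genes, or 4097 and 7458 with gene totals, which shift the median of all genes to -0.22), and 367 genes had a larger log2 fold change than Duxf3. All 5 cluster genes passed as higher.

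AW822073 had 309 and 409 reads with doxycycline, against 3 and 4 without (164-fold, log2 fold change 7.36 ± 0.23). Gm10807 had 141 and 246 reads, against 3 and 2 (121-fold). No library with doxycycline overlapped one without for either gene. Gm4981, the copy with no shared 125-base window, had 60 and 71 reads with doxycycline, against 1 and 1 without. Its log2 fold change was 6.57 ± 0.46 (adjusted p = 2.84e-33). The plain ratio of its summed reads, 131 against 2 at the scale of this comparison, was 109.7 with an exact 95% counting interval from 29.8 to 915.7. For Duxf3, with 1024 reads against 8, the same ratio was 214.5 (108.4 to 498.1). Gm19459 had 53 and 67 reads, against 2 and 2, and a log2 fold change of 5.54 ± 0.42.

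The doxycycline effect on Duxf3 exceeded the transient effect. The difference of the log2 fold changes was 5.22 ± 0.69 (adjusted p = 6.73e-05, edgeR interaction contrast), in a fit where 14.1% of genes passed with a larger doxycycline effect. This fit reuses the libraries of both comparisons, and read type and cell line differ between the sets. For AW822073 the difference was 4.91 ± 0.78 (adjusted p = 0.000294). Gm19459 (5.41 ± 2.35, adjusted p = 0.0884) and Gm4981 did not pass, both with nearly no transient reads.

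Within the induced line, Duxf3 RNA was far higher in the cells that had switched on the MERVL reporter. Duxf3 had 362 and 327 reads in GFP-positive libraries, against 22 and 13 in the more deeply sequenced GFP-negative libraries. These came to 14.5 and 13.4 CPM in GFP-positive cells, against 0.391 and 0.235 CPM in GFP-negative cells on the scale of this comparison. Duxf3 was 44.1-fold higher (log2 fold change 5.46 ± 0.20, adjusted p = 5.2e-11), where 34.3% of genes were higher and 32.0% lower (5631 and 5252 genes, or 4052 and 7702 with gene totals, median -0.25). The sort gate was the MERVL reporter, itself a target of the Dux protein, so the gate and Dux activity are not independent.

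The other copies followed. AW822073 had 232 and 249 reads in GFP-positive cells, against 16 and 16 in GFP-negative cells (33.7-fold, log2 fold change 5.07 ± 0.21). Gm4981 had 32 and 40 reads, against 1 and 3 (5.23 ± 0.52, or 6.10 without GFP-negative library B and 4.66 without A), and Gm19459 had 47 and 45, against 1 and 2 (5.96 ± 0.50). With so few GFP-negative reads the exact counting interval of the Gm19459 ratio ran from 23.0 to 342.6. Gm10807 had 133 and 133 reads, against 9 and 12, a log2 fold change of 4.82 ± 0.26. All 5 genes of the cluster were higher in GFP-positive cells, and in none did the groups overlap.

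In the authors' deposited table the Duxf3 log2 value, there with the induced group as the denominator, was -7.23 ± 0.44 for no doxycycline over doxycycline (adjusted p = 5.91e-58). For GFP-negative over GFP-positive it was -5.32 ± 0.31 (adjusted p = 4.37e-66). Both have the induced or GFP-positive cells as the higher ones.

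GFP-negative cells, which had also received doxycycline, were not shown to differ from uninduced cells in Duxf3. In a fit that joined all 8 libraries of the stable line, and so reuses those of both comparisons above, the log2 fold change of GFP-negative over no doxycycline was 0.92 ± 0.55 for Duxf3 (adjusted p = 0.129), and 0.34 with gene totals (adjusted p = 0.593). AW822073 (0.98 ± 0.53), Gm10807 (0.85 ± 0.71), Gm4981 (-0.17 ± 1.13) and Gm19459 (-1.47 ± 0.98) did not pass either. In this fit 43.6% of all genes were higher and 34.2% lower (7768 and 6096 genes, or 5069 and 9117 with gene totals), and sorting and table are confounded with the group. The 2-cell target genes, a list chosen with earlier results of these data known, passed as higher in 31 of 34 cases. Zscan4d was at a log2 fold change of 5.41 ± 0.12. The counts behind Duxf3 were 22 and 13 reads in GFP-negative cells and 5 and 3 without doxycycline, and the error is correspondingly wide.

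**Figure D3:**
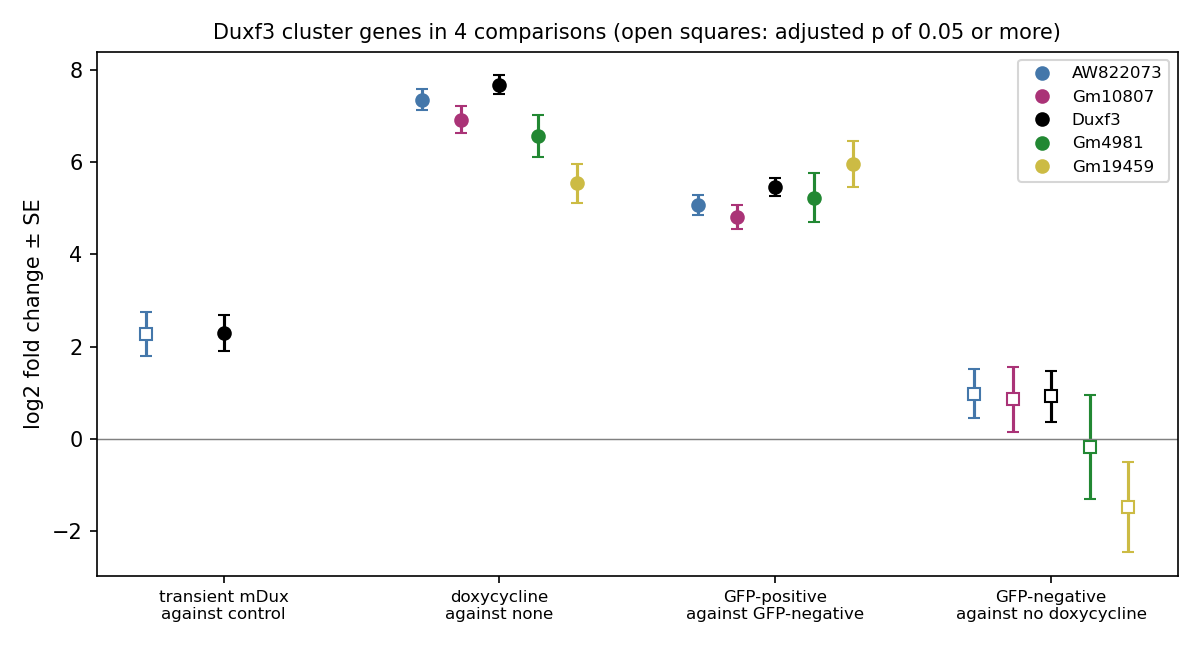
Log2 fold changes with standard errors for the 5 cluster genes in 4 comparisons. Filled circles passed at an adjusted p under 0.05 and open squares did not: all 5 genes passed with doxycycline and in GFP-positive cells, Duxf3 alone passed with transient mDux among the 2 tested, and none passed for GFP-negative cells against no doxycycline.

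GFP-positive libraries held less Duxf3 RNA than the unsorted doxycycline libraries, while target genes moved in both directions. This comparison was chosen after the levels were seen, reuses libraries of the comparisons above, and has sorting and table confounded with the group. The unsorted mean of 41.5 CPM lay above both the GFP-positive (17.5 CPM) and the GFP-negative mean (0.401 CPM). A mix of the sorted groups would lie between them. The sorted and unsorted libraries therefore cannot be read as parts and whole of the same culture, and the reason was not tested. Duxf3 was at 18.1 and 16.8 CPM in GFP-positive cells, against 37.4 and 45.6 CPM in unsorted doxycycline cells. Its log2 fold change was -1.41 ± 0.12, or 0.376 of the unsorted level (adjusted p = 4.94e-12), and ran from -1.22 to -1.52 with 1 library left out at a time. With gene totals in place of TMM it was -1.94, where the median of all genes shifted to -0.62.

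The 4 other copies were lower too, AW822073 by a log2 fold change of -1.42 ± 0.12, Gm10807 by -1.37 ± 0.17, Gm4981 by -1.71 ± 0.26 and Gm19459 by -1.23 ± 0.25. Large parts of the transcriptome passed here, with 37.8% of genes higher and 39.0% lower (6733 and 6949 genes, or 4513 and 9895 with gene totals), and 18.9% of genes had a lower log2 fold change than Duxf3. Of 34 target genes, 16 were higher and 11 lower in GFP-positive cells, with a median of -0.02 against -0.09 over all genes. These counts are read against the 37.8% and 39.0% of all genes, so they single out nothing about the targets. With gene totals 13 were higher, 19 lower and the median was -0.56, against -0.62 over all genes. Zscan4d, a SCAN and zinc-finger gene that marks 2-cell-like cells, was at 7482 and 7195 CPM in GFP-positive cells, against 3192 and 3226 CPM in unsorted doxycycline cells (log2 fold change 1.04 ± 0.06). Arg2, encoding a mitochondrial arginase, was higher by 2.05 ± 0.06, and Spz1, encoding a bHLH-zip factor of spermatogenic cells, was lower (-1.07 ± 0.07).

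**Figure D4:**
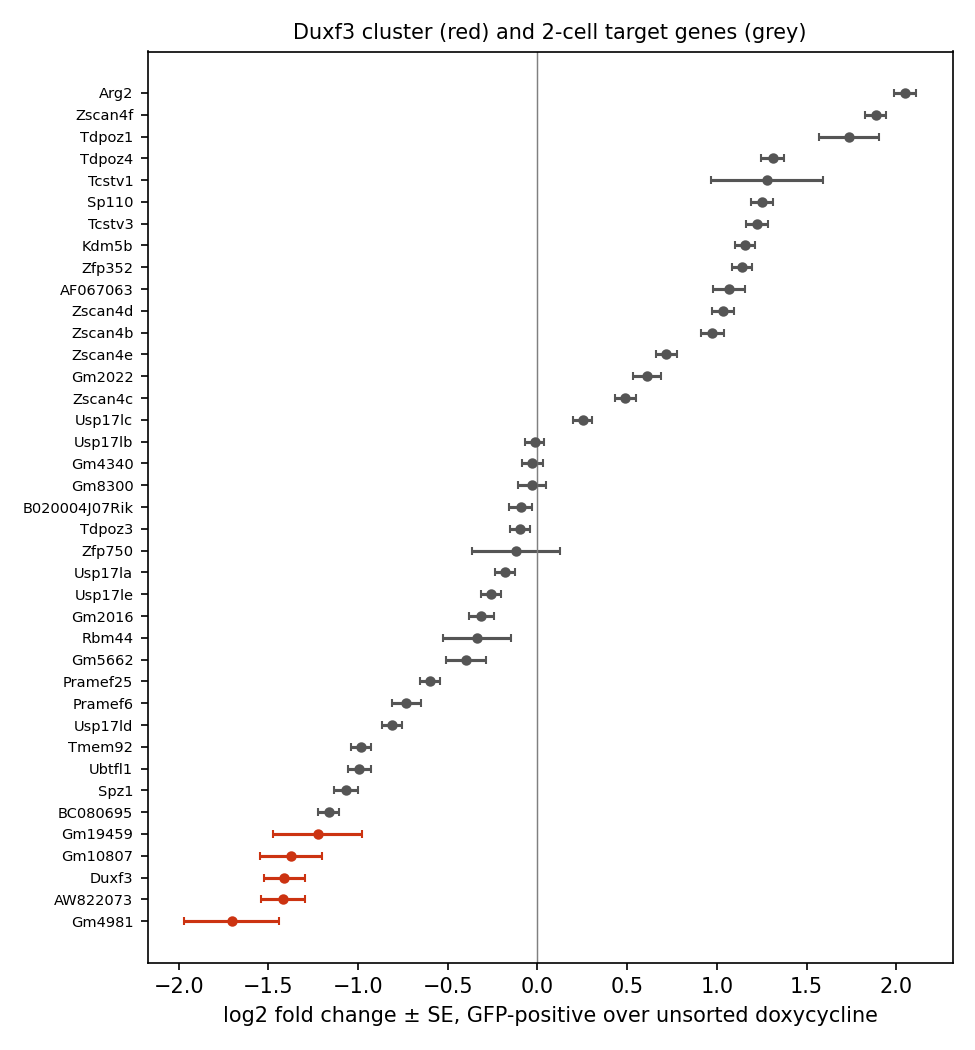
Log2 fold change with standard error, GFP-positive over unsorted doxycycline, for the 5 cluster genes (red) and 34 target genes of the 2-cell stage (grey), ordered by value. The cluster genes lie between -1.71 and -1.23, below every target gene shown, the lowest of which is BC080695 at -1.16 ± 0.06. That order is not firm, with Gm19459 at -1.23 ± 0.25. Without doxycycline library B, Gm10807 was at -1.01, above BC080695 at -1.06.

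The makeup of the cluster's reads was steady between doxycycline and GFP-positive libraries. Duxf3 took 42.8% (exact 95% interval 39.7 to 45.9) and 43.2% (40.6 to 45.8) of the reads of the 5 genes in doxycycline libraries, against 35.7% and 25.0% of only 14 and 12 reads without. In GFP-positive libraries it took 44.9% (41.4 to 48.4) and 41.2% (37.7 to 44.7), against 44.9% and 28.3% of 49 and 46 reads in GFP-negative libraries. The intervals of these 4 libraries overlap, and cover counting error only. In the transient table, with 4 genes listed, Duxf3 took 63.8% and 72.0% with mDux, against 58.3% and 75.0% in controls.

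Duxbl1 stayed at or under the limit of detection in the stable line. It had 0 reads in both doxycycline and both no-doxycycline libraries, 1 and 0 reads in GFP-positive libraries and 0 in both GFP-negative ones. A count of 0 allows up to 3 reads, which is 0.314 and 0.270 CPM in doxycycline libraries, against 0.211 and 0.194 CPM without. In GFP-negative libraries the limit was 0.0584 and 0.0590 CPM, and in GFP-positive library B it was 0.113 CPM. So a Duxbl1 level like that of Duxf3 with doxycycline would have been seen if its reads were counted, while a rise below these limits was not detectable. With 83.4% of its 125-base windows in other transcripts, what share of Duxbl1 reads could have been counted was not tested. The gene had too few reads for any fit, and the same files do hold reads for its neighbours.

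Among annotated genes within 500 kb of Duxbl1, 6 were tested with doxycycline, of which 3 were higher and 3 lower, and 5 were tested in the sort, of which 4 were higher and 1 lower. The zinc-finger gene Zcchc24 had 853 and 1107 reads with doxycycline, against 256 and 284 without (log2 fold change 2.60 ± 0.08). Zmiz1, encoding a transcriptional coregulator of the PIAS-like family, was higher by 2.25 ± 0.07 with doxycycline and by 1.68 ± 0.07 in GFP-positive cells. Ppif, encoding cyclophilin D, was higher by 0.47 ± 0.08 and 0.63 ± 0.07, while Slmap was lower in both (-0.36 ± 0.06 each). Anxa11 was lower with doxycycline (-0.38 ± 0.13) and higher in GFP-positive cells (0.25 ± 0.08), and 4933413J09Rik was lower with doxycycline (-1.04 ± 0.42). None of 6 passed with transient mDux, near the 2.13% higher and 0.00668% lower of all genes there. Over all genes 34.0% were higher with doxycycline and 34.3% in the sort, so these few genes are read against a high background. The calls of Anxa11 in both comparisons and of 4933413J09Rik were lost with DESeq2 (adjusted p = 0.146, 0.0981 and 0.290) and with single libraries left out.

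Outside the cluster, no tested gene within 500 kb of Duxf3 had a change near the size of those inside it. Edar, encoding the ectodysplasin receptor, had too few reads to be tested, with 4 and 6 in GFP-positive libraries, against 0 and 0 in GFP-negative libraries. Gcc2, encoding a golgin of the Golgi and the next gene along, was higher by 0.42 ± 0.07 with doxycycline and by 0.73 ± 0.07 in GFP-positive cells. Lims1, an adaptor of integrin adhesions, was lower (-0.77 ± 0.07 and -0.24 ± 0.07). With doxycycline, Ccdc138 (-0.54 ± 0.15) and Ranbp2, a nuclear pore protein gene (-0.19 ± 0.06), were lower as well, the call of Ccdc138 being lost with DESeq2 (adjusted p = 0.0759) and that of Ranbp2 when library B of either group was left out (0.142 without the doxycycline one and 0.127 without the uninduced one). The call of Lims1 in the sort was lost without GFP-negative library B or GFP-positive library B (adjusted p = 0.0565 and 0.0619). Counting the cluster genes, 5 of 9 tested neighbours were higher and 3 lower with doxycycline, and 5 of 8 were higher and 1 lower in the sort, beside 34.0% higher and 31.1% lower, and 34.3% higher and 32.0% lower, of all genes. Gcc2 was the 1 gene outside the cluster among the higher ones in both, at 0.42 with doxycycline against 5.54 for Gm19459, its neighbour at the edge of the cluster. None of 5 passed with transient mDux, near the 2.13% higher and 0.00668% lower of all genes there.

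Among genes reported to activate Dux, 2 were higher in all 3 comparisons and the others split. Of 9 tested, 2 were higher and 0 lower with transient mDux (median log2 fold change 0.18), 4 higher and 2 lower with doxycycline (0.44) and 4 higher and 3 lower in GFP-positive cells (0.12). Over all genes 34.0% and 31.1% were called higher and lower with doxycycline and 34.3% and 32.0% in the sort, near the stable-line counts of this small list, against 2.13% and 0.00668% with transient mDux. Nelfa, a subunit of the negative elongation factor that is known in mouse embryonic stem cells to drive Dux, was the member with the largest change. It stood at 764 and 748 CPM with transient mDux, against 148 and 166 CPM in controls (log2 fold change 2.26 ± 0.10, adjusted p = 2.86e-05). It stood at 2870 and 3037 CPM with doxycycline, against 59.1 and 59.0 CPM without (5.65 ± 0.07). In GFP-positive cells it was at 7835 and 7855 CPM, against 165 and 166 CPM in GFP-negative cells (5.57 ± 0.06). The groups were far apart each time.

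Dppa2, a SAP-domain chromatin protein that with Dppa4 activates Dux, was at 91.4 and 98.4 CPM with transient mDux, against 64.0 and 64.8 CPM in controls (0.56 ± 0.10, adjusted p = 0.0284). That call did not survive leaving out either mDux library (adjusted p = 0.395 for A and 0.916 for B). It was higher by 2.96 ± 0.07 on the log2 scale with doxycycline and by 2.44 ± 0.06 in GFP-positive cells. Its partner Dppa4 did not pass in any of these 3 (0.23 ± 0.12, 0.14 ± 0.08 and 0.12 ± 0.06). Trp53, whose product p53 can activate Dux after DNA damage, was lower with doxycycline (-0.69 ± 0.06) and in GFP-positive cells (-0.45 ± 0.05). Gadd45b was higher in both, Gadd45a with doxycycline only (1.34 ± 0.15, and -0.16 ± 0.12 in the sort). Gadd45b did not pass in the sort with gene totals only (adjusted p = 0.530) or without GFP-negative library B (0.0569). Zscan5b was lower with doxycycline (-0.62 ± 0.24) and higher in GFP-positive cells (0.85 ± 0.28), calls that DESeq2 did not make (adjusted p = 0.237 and 0.140), and Bmp4 and Smad7 were lower in GFP-positive cells (-1.37 ± 0.18 and -0.50 ± 0.07).

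Genes reported to repress Dux showed no common direction. None of 25 passed with transient mDux, near the 2.13% higher and 0.00668% lower of all genes there. With doxycycline 11 were higher and 9 lower (median 0.09), and in GFP-positive cells 9 were higher and 9 lower (median -0.06), beside 34.0% higher and 31.1% lower, and 34.3% higher and 32.0% lower, over all genes. Zmym2, a zinc-finger cofactor of chromatin repression, was higher by 1.30 ± 0.06 and 1.20 ± 0.05, and Trim28, a co-repressor of retroviruses, by 0.70 ± 0.06 and 0.69 ± 0.05. Mga, a subunit of the repressive complex PRC1.6, was lower (-1.08 ± 0.06 and -1.21 ± 0.06). Lin28a, an RNA-binding protein, was lower too (-0.97 ± 0.09 and -1.41 ± 0.08). Setdb1, a histone methyltransferase, was higher (0.27 ± 0.06 and 0.53 ± 0.05), as was Smchd1 (0.28 ± 0.07 and 0.22 ± 0.05). With gene totals only, Setdb1 was at 0.05 and Smchd1 at 0.06 with doxycycline, and Smchd1 turned to -0.03 in the sort, none of them passing. The histone chaperone subunit gene Chaf1a did not pass (0.09 ± 0.06 and -0.12 ± 0.06).

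Nearly all genes listed as targets of Dux at the 2-cell stage were higher in the 3 comparisons in which Duxf3 was. The list was chosen with earlier results of these data known, so its counts are a description and no independent test. With transient mDux 29 of 33 were higher and 0 lower (median log2 fold change 3.10, against 2.29 for Duxf3), where 2.13% of all genes were higher. With doxycycline 33 of 34 were higher and 0 lower (median 9.88, against 7.68 for Duxf3). Of these, 3 had no read in either uninduced library, and with them at a bound of 3 counts over the group the median was 9.82. In GFP-positive cells 33 of 34 were higher, with Zfp750 lower (median 6.29, against 5.46 for Duxf3). Of all genes 34.0% were higher with doxycycline and 34.3% in the sort. The median over all genes was at 0.00285, 0.00478 and 0.00101 in these comparisons. Spz1 (4.15 ± 0.21), AF067063 (3.83 ± 0.40), the zinc-finger gene Zfp352 (3.71 ± 0.13), Tcstv3 (3.70 ± 0.16) and the ubiquitin protease genes Usp17lb (3.68 ± 0.12) and Usp17le (3.64 ± 0.24) had the largest changes with transient mDux. Many targets belong to families of near-identical copies, as the Dux cluster does, so single counts are uncertain.

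Other homeobox genes of the paired and oocyte types, the wider class to which Dux belongs, gave no call with transient mDux (0 of 11). That is near the 2.13% higher and 0.00668% lower of all genes there. With doxycycline 13 of 19 were higher and 2 lower (median 2.04), and in GFP-positive cells 16 of 23 were higher and 0 lower (median 2.34), beside 34.0% of all genes higher and 31.1% lower with doxycycline and 34.3% and 32.0% in the sort. These medians were the same with the 3 members at 0 in each set at their bound. Of 29 members listed, only 19 and 23 had enough reads to be tested in these comparisons. The 3 without reads in uninduced or GFP-negative cells passed the filter only through doxycycline or GFP-positive libraries. The counts and medians of this list are therefore partly set by the filter, and are a description. Obox6 had 562 and 552 reads with doxycycline, against 27 and 32 without (4.98 ± 0.14), and was higher by 4.40 ± 0.14 in GFP-positive cells. Obox3 had 128 and 153 reads with doxycycline, against 0 and 0 without, and 181 and 186 in GFP-positive cells, against 13 and 4 in GFP-negative cells. Crx, a homeobox gene of photoreceptors, had only 13 and 14 reads with doxycycline, against 1 and 0 without. Otx2 (-0.52 ± 0.11) and Rhox5 (-1.07 ± 0.14) were the 2 that were lower with doxycycline.

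The genes with the pattern most like that of Duxf3 were found by Pearson's r of log2(CPM + 0.5), centred within each table, over 12 libraries and 13980 genes. All these values share the same libraries, and r here mostly separates induced from uninduced ones. The closest were Gm13083, Gm12136 and Gm11238 (r = 0.998 each), then Serpinb1c, Gm12724, Mob3b, Gm6317, Fam124a, Lrrn4 and Obox4-ps27 (r = 0.997 each). AW822073 was at rank 55 (r = 0.995). A high r does not mean a like size: Mob3b was higher by 2.18 ± 0.09 with doxycycline, and Fam124a by 8.72 ± 0.11, against 7.68 ± 0.20 for Duxf3.

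Markers of the labelled cell type were present in every group. Summed over 8 pluripotency genes they came to 3517 to 3730 CPM with doxycycline, against 6818 to 6848 CPM without, and to 4453 to 4706 CPM in GFP-positive cells, against 6568 to 6702 CPM in GFP-negative cells. Within the stable line they were thus lower in doxycycline and GFP-positive cells, the groups with most Duxf3 RNA. In the transient set the sums overlapped, at 3679 to 3704 CPM with mDux and 3600.5 to 3814 CPM in controls. Transient controls, with little Duxf3 RNA, thus stood near the doxycycline sums, and across sets a low sum did not go with high Duxf3 RNA. Of 7 fibroblast markers 6 were listed, and their sum was 16.5 CPM in both doxycycline libraries, against 1.92 to 1.96 CPM without, and 22.7 to 24.7 CPM in GFP-positive cells, against 3.80 to 3.92 CPM in GFP-negative cells. Summed over 7 endoderm markers, the range was 33.9 to 37.4 CPM with doxycycline, against 48.4 to 54.1 CPM without, and 97.8 to 109 CPM in GFP-positive cells, against 253 to 259 CPM in GFP-negative cells. In this sum GFP-negative cells stood above uninduced cells, in the pair for which Duxf3 was not shown to differ. Sorting and table are confounded with the group there, and the sum does not tell which members carry it. The 7 trophectoderm markers summed to 24.4 to 26.6 CPM with doxycycline, against 53.0 to 54.4 CPM without, and to 33.1 to 33.8 CPM in GFP-positive cells, against 53.9 to 54.6 CPM in GFP-negative cells. With transient mDux the endoderm sum was 194 to 205 CPM, against 223 to 231 CPM in controls. Of 4 blood markers 3 were listed, with sums from 0.232 to 2.19 CPM over all groups. The part of these shifts in the Duxf3 values was not tested. Reads assigned to genes ran from 16101509 to 20506060 per transient library, 9555044 to 15468715 per unsorted library and 26446154 to 51358607 per sorted library.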

How the data were processed

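The members, the gene lists and the rules were chosen with earlier results of these data known. Novoalign 2.8, DESeq2 and the build mm10 are named per the submitters' processing notes, with no role given. Per the labels' protocols, libraries came from poly(A) RNA and a stranded kit. Counting tool, strand setting, annotation release and treatment of reads with several matches: not given in the sources used here. Raw read counts per gene and repeat family, with a length per gene, were deposited by the authors in 3 tables. The log2 fold changes and adjusted p-values beside them are the authors' own, per the file headers, and are printed as such. The authors' log2-scale rlog columns were not used. Column names number libraries from 0 and sample titles from 1, so columns were tied to groups only.

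Counts were tested with edgeR 4.0.16 and limma 3.58.1 in R 4.3.3 (glmQLFit with robust estimation, glmQLFTest). Features passed filterByExpr (minimum count 10, minimum total 15), and library sizes and TMM factors came from genes alone. P-values were adjusted by Benjamini-Hochberg over all genes tested, with 0.05 as the threshold. Each main comparison used its own 4 libraries, and the joint and interaction fits used 8. An SE is the log2 fold change divided by the square root of F. CPM uses gene reads, and RPKM divides CPM by the deposited length. The fits were run on simulated data with known changes, balanced in direction and set in genes with enough reads. That setting covers neither the share of genes called in the stable line nor the large changes from low counts in the cluster. Duxf3 passed the filter in all 3 tables and Duxbl1 in none. Alternatives were DESeq2 1.42.0, gene totals without TMM, other filters, repeat reads in the library size, summed copies, a block on the column number and leaving out each library. Transient libraries varied most within groups (biological coefficient of variation 11.9%, against 3.78% unsorted and 5.04% sorted). Detection limits and share intervals cover counting error only. Transcript windows and identities come from GENCODE transcripts, with local alignment in Biopython.

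From each list, genes were named that passed in all 3 main comparisons, up to 6 by size of change with transient mDux and up to 6 with doxycycline. Neighbours were named if they passed in any comparison, up to 8 per locus, and so were the 10 genes most like Duxf3. Genes outside this rule (the regulators other than Nelfa and Dppa2, the homeobox genes, Arg2 and BC080695) were chosen after their values were seen.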

Additional observations from a re-analysis of the deposited data

Results flagged for a closer look

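The effect of doxycycline in the stable line differed from the effect of transient mDux for 2 genes of the cluster, by a test of the difference itself. For Duxf3 the doxycycline log2 fold change exceeded the transient one by 5.22, and for AW822073 by 4.91. The sets differ in cell line, delivery of the transgene and read type, which cannot be told apart here.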

How the results depend on the processing

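Of the results recomputed under the alternatives, 352 kept their direction and side of the threshold or moved little, and 20 did not. With 1 library left out at a time, the Duxf3 log2 fold change ran from 1.88 to 2.61 with transient mDux, where the call was lost without mDux library B, from 7.30 to 8.13 with doxycycline and from 5.14 to 5.87 in GFP-positive cells. It ran from 0.51 to 1.42 for GFP-negative cells against no doxycycline and from 4.86 to 5.70 for the doxycycline effect minus the transient effect, with no call changed. With 1 transient library left out, calls among activating regulators ran from 1 to 5 (2 as reported), among repressing regulators from 0 to 7 (0 as reported, 7 without control B) and among homeobox genes from 0 to 2. The cause was not tested. Without a filter on low counts 2 homeobox genes passed with transient mDux.

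Within 200 kb of Duxbl1, where fewer genes lie, 1 gene passed with doxycycline (6 within 500 kb) and 1 in the sort (5 within 500 kb). The mean Duxf3 level with doxycycline was 50.0 CPM with gene totals only and 35.1 CPM with repeat reads in the library size, and in GFP-positive cells 12.9 and 13.7 CPM. Gm4981 turned direction for GFP-negative cells against no doxycycline without GFP-negative library A (0.37), ran from -1.02 to 0.37 over the libraries left out, and never passed. Gm19459 passed in the interaction with DESeq2 (5.63, adjusted p = 0.0452). With gene totals only, 4097 genes were higher and 7458 lower with doxycycline (median -0.22), and 4052 higher and 7702 lower in the sort (median -0.25).

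With transient mDux, 319 genes were higher and 1 lower, and an unadjusted p under 0.05 was reached by 974. DESeq2 gave 291 higher and 2 lower. Without control A 522 were higher and 92 lower, without control B 1185 and 1404, and with no filter 442 and 91. With the column number as a replicate block, which leaves 1 residual degree of freedom, the Duxf3 log2 fold change was 2.32 with transient mDux, 7.68 with doxycycline and 5.47 in the sort, all passing, and AW822073 passed with transient mDux (2.27, adjusted p = 0.00465). Calls under the block were 389 higher and 40 lower, 5384 and 4873, and 5405 and 5014 in these comparisons. Same-numbered deviations correlated at -0.15, -0.02 and -0.04 across genes. With 2 libraries per group this cannot decide whether same-numbered libraries share a culture or batch, and their pairing is unknown. With the transient numbers crossed, a choice made after the data were seen, 400 were higher and 14 lower. Summing the cluster genes and setting GFP-positive against unsorted doxycycline cells were added after the data were seen.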
